A study of Mus musculus with 6 samples.

Results

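Sp3 was knocked down with short hairpin RNAs in primary mouse neurons, and the RNA of these cultures was compared with that of control cultures, gene by gene. The deposited comparison lists 23235 genes, and the 13619 that passed the authors' filter on low or unreliable values (status OK) are the genes described here, chosen without regard to their change. Of these, 13546 had a value above 0 in both groups and 13539 of them also had a usable standard error, so 13539 genes were tested. The cultures were cortical and hippocampal neurons of mouse embryos at day 15, grown for 17 days in Neurobasal medium with 2% B27. The treatment protocol, worded alike for all groups, gives 1 uM cytosine arabinoside (AraC), which blocks dividing cells, on day 5 in culture and transduction with hairpin lentivirus on day 12. Control libraries are labelled as control with no hairpin named. The control and the Sp3 knockdown groups held 2 libraries each, and 2 further libraries with HDAC2 hairpins, measured against the same controls, serve for side-by-side values. Strain, hairpin sequences and what hairpin, if any, the controls carried were not given in the sources used here. Whether both libraries of a group stem from separate cultures is likewise unstated, so p-values may measure technical spread only.

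Sp3 is a transcription factor whose zinc fingers contact GC boxes, short GC-rich elements found in the promoters of many housekeeping and neuronal genes. It shares these sites with its relatives Sp1 and Sp4 and can activate or repress, in part by bringing histone deacetylases to the promoter. The series asks whether Sp3 and the histone deacetylase HDAC2 act together on a set of genes in neurons.

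Each gene has 1 expression value per group, in FPKM (fragments scaled to transcript length and library size), which the authors computed over both libraries of the group. All FPKM below are these values, so none has a spread over libraries. Changes are given as log2 of Sp3 knockdown over control after subtracting the median of the 13268 genes that reach 1 FPKM in control or knockdown, which was -0.13, and are called centred. The error after ± is the standard error implied by the authors' test statistic, and adjusted p is the two-sided normal p of the centred statistic after Benjamini-Hochberg (BH) adjustment over all tested genes. HDAC2 changes are centred likewise on their own median of 0.32. A gene is called higher or lower, or said to rise or fall, at an adjusted p under 0.05. Read depth per library is unknown, since FPKM keep no counts.

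Sp3 itself (chromosome 2, 72774489 to 72827306 in mm9, the build of the files) measured 15.5 FPKM in control and 5.82 FPKM in Sp3 knockdown. The knockdown cultures held the lower value, with a centred change of -1.28 ± 0.11 (adjusted p of 3.16e-30). In HDAC2 knockdown Sp3 measured 26.7 FPKM, above control, with a centred change of 0.47 ± 0.089. The test of the difference between the knockdowns gave an adjusted p of 1.83e-32 for Sp3. Its nearest relatives did not pass the test: Sp1 had a centred value of -0.15 ± 0.11 (adjusted p of 0.276), Sp4 0.0072 ± 0.12 (adjusted p of 0.972) and Sp2 0.0092 ± 0.28 (adjusted p of 0.984). These calls depend on the centring for Sp1, which the authors' deposited table calls lower (-0.28 uncentred, q of 0.0287), and the values of Sp4 and Sp2 turn to -0.13 and -0.12 without centring. The wider family of Krüppel-like factors (KLF), which bind similar GC-rich sites, moved in both directions, with 4 of 13 tested members higher (30.8%, against 20.2% of all genes) and 1 lower (7.69%, against 17.6%). The authors' deposited table calls 2 higher and 2 lower. Klf13 measured 27.4 FPKM in control and 43.2 FPKM in Sp3 knockdown, and Klf5 4.75 FPKM in control and 6.62 FPKM in Sp3 knockdown. Both rose, by 0.79 ± 0.13 and 0.61 ± 0.20, although Klf5 has a q of 0.0564 in the authors' deposited table, and Klf3, a repressor, fell by 0.42 (centred -0.42 ± 0.17, adjusted p of 0.0324). RefSeq lists a pair of start sites for Sp3, and both promoters are shown because Sp3 is the targeted gene and its own promoters hold the element that Sp proteins bind. The windows run from 250 bases before to 50 bases after the start on the minus strand of GRCm38.p6, at chr2:72980397-72980696 and chr2:72979232-72979531, and capitals mark GC boxes (GGGCGG on either strand).
Sp3 start 1: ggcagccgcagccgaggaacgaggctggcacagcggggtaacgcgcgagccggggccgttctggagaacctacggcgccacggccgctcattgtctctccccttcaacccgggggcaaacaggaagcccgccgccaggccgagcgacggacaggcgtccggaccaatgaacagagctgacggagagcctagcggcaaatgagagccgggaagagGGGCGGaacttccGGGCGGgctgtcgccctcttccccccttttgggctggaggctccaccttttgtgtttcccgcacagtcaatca
Sp3 start 2: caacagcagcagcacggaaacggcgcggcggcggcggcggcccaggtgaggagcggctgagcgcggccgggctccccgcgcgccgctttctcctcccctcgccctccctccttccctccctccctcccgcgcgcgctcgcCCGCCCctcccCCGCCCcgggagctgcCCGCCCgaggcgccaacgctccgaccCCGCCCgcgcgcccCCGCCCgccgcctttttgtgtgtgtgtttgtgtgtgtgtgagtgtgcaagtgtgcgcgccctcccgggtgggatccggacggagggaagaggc
The first window holds 2 GC boxes, beginning at -36 and -23 from the start, and the second holds 5, between -110 and -43. Of all 32851 promoter windows in the RefSeq table, 35.7% hold at least 1 GC box.

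Changes in both directions were common but mostly small. The median centred change of all 13539 tested genes was -0.0016. Of these genes, 2736 were higher (20.2%) and 2383 lower (17.6%), together 37.8%. The median called rise was 1.44-fold and the median called fall 1.498-fold. Only 347 genes rose and 372 fell by at least 2-fold, and beyond 4-fold there were 12 rises and 70 falls. The authors' deposited table, which is not centred, called 1801 genes higher (13.2%) and 3552 lower (26.1%), together 39.3%, so that 33.6% of its calls were higher against 53.4% here. Counts in the gene lists below stand against these shares of all genes, and the authors' uncentred calls are given where they turn the balance of a list. Genes between 20 and 100 FPKM had the smallest standard errors, with a median of 0.11, against 0.48 under 1 FPKM and 0.18 at 100 FPKM or more. Some of the most abundant genes had errors too wide for any call, such as App, which encodes the amyloid precursor protein, with a centred value of -0.028 ± 1.62, and the chaperone gene Hspa8, with 0.20 ± 2.61. Which reference distribution suits a test on 2 libraries per group matters for every call: with a t distribution of 2 degrees of freedom in place of the normal, no gene passed BH adjustment (smallest adjusted p of 0.306), while 1295 genes were higher and 910 lower at an unadjusted p under 0.05.

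**Figure D1:**
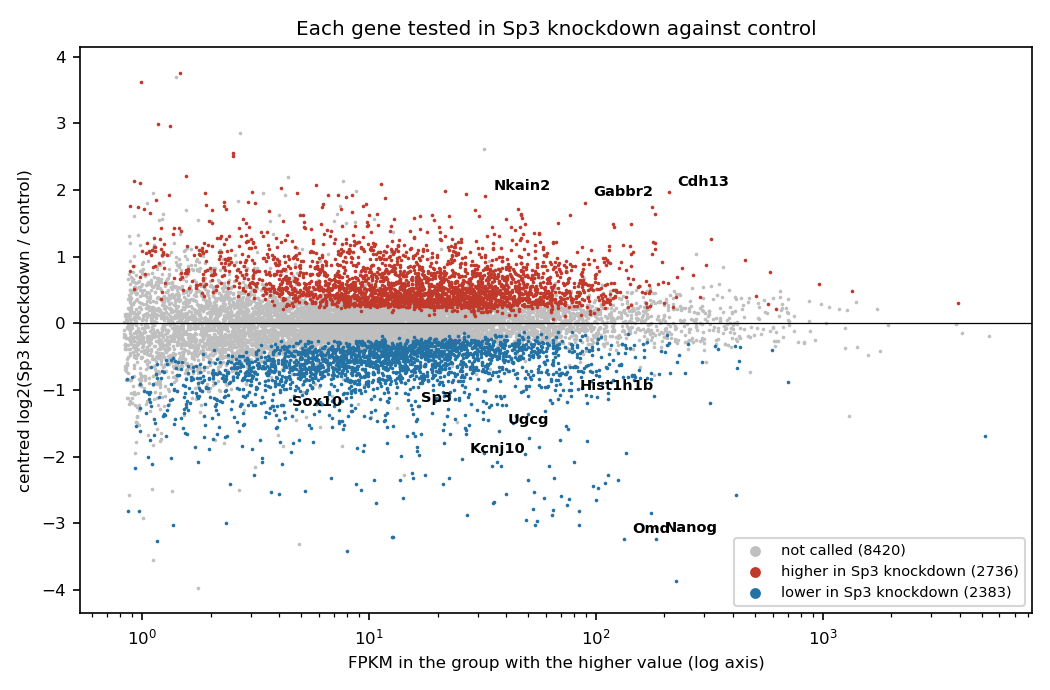
Centred log2(Sp3 knockdown / control) of each tested gene (vertical axis) against its FPKM in the group with the higher value (horizontal log axis), red for the 2736 higher, blue for the 2383 lower and grey for the 8420 genes not called. Falls reach further than rises, with 70 genes beyond 4-fold down and 12 beyond 4-fold up.

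The largest rises at 30 FPKM or more included genes of surface proteins. Cdh13, a cadherin held in the membrane by a lipid anchor, measured 58.5 FPKM in control and 209 FPKM in Sp3 knockdown, a rise of 1.97 ± 0.12 (adjusted p of 2.82e-60), against 0.56 ± 0.35 in HDAC2 knockdown (adjusted p of the difference 0.00203). Nkain2, whose product binds the sodium pump, measured 9.49 FPKM in control and 32.5 FPKM in Sp3 knockdown, a rise of 1.91 ± 0.11, against 1.94 ± 0.27 in HDAC2 knockdown. Cxadr, a cell adhesion protein that also serves as a virus receptor, measured 63.9 FPKM in control and 182 FPKM in Sp3 knockdown, a rise of 1.64 ± 0.18. All 3 stood well above control in the knockdown. Igfbp5, a secreted binding protein of insulin-like growth factors, measured 27.3 FPKM in control and 76.6 FPKM in Sp3 knockdown, a rise of 1.62 ± 0.13. Srxn1, which restores oxidised peroxiredoxins, measured 10.9 FPKM in control and 30.5 FPKM in Sp3 knockdown, a rise of 1.61 ± 0.10. Nipa1 (16.5 to 46.5 FPKM, 1.63 ± 0.10), a magnesium transporter, Agap1 (17.4 to 47.3 FPKM, 1.58 ± 0.079), which acts on the small GTPase Arf, and Rnft2 (14.7 to 39.97 FPKM, 1.57 ± 0.066), a RING finger gene, complete this set with Npcd (57.6 to 177 FPKM, 1.75 ± 0.17), the receptor genes Gabrb2 (15.1 to 45.3 FPKM) and Gabbr2 (27.8 to 89.2 FPKM) and the sodium channel subunit gene Scn3b (16.4 to 46.8 FPKM). Npcd overlaps other genes, so its reads may come from more than 1 gene. In HDAC2 knockdown Gabrb2 stood at 1.59 ± 0.42, Nipa1 at 1.61 ± 0.26, Agap1 at 1.59 ± 0.21 and Scn3b at 1.30 ± 0.22. Cxadr stood there at 1.27 ± 0.62, Igfbp5 at 1.28 ± 0.44 and Gabbr2 at 1.22 ± 0.38. Npcd stood there at 0.53 ± 0.49. Of this set at 30 FPKM or more, only Cdh13, Srxn1 and Rnft2 passed the test of the difference from HDAC2 knockdown. Standard errors were wider in the HDAC2 than in the Sp3 comparison, with medians of 0.26 and 0.14 at 1 FPKM or more. Not passing therefore does not show that a gene changed alike in both knockdowns. Among genes of lower abundance, Unc5a, a receptor for the guidance cue netrin, rose from 5.96 to 21.6 FPKM (1.99 ± 0.11, against 2.08 ± 0.28 in HDAC2 knockdown), Fst, the activin inhibitor follistatin, from 1.51 to 5.798 FPKM (2.07 ± 0.26), Aldh1a3, an enzyme of retinoic acid synthesis, from 0.371 to 1.56 FPKM (2.21 ± 0.43), and Casp1, the inflammatory caspase, from 0.483 to 2.51 FPKM (2.51 ± 0.55). The folds of Aldh1a3 and Casp1 rest on control values under 1 FPKM. By absolute difference in FPKM, the rises among protein-coding genes included Olfm1, a secreted neuronal glycoprotein (256 to 454 FPKM, 0.96 ± 0.054), the adhesion gene Cntn1 (146 to 320.3 FPKM, 1.27 ± 0.064) and the glycolytic enzyme gene Gpi1 (182 to 305 FPKM, 0.88 ± 0.31).

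Most of the steepest falls had steep counterparts in cultures with HDAC2 hairpins, which were measured against the same controls. Nanog, a pluripotency factor, measured 184 FPKM in control and 17.9 FPKM in Sp3 knockdown, and 26.2 FPKM in HDAC2 knockdown. Omd, an extracellular matrix proteoglycan, measured 133 FPKM in control and 12.9 FPKM in Sp3 knockdown, and 24.4 FPKM in HDAC2 knockdown. H2-T23, a non-classical MHC gene, measured 183 FPKM in control and 19.9 FPKM in Sp3 knockdown, and 30.3 FPKM in HDAC2 knockdown. In each case the control value stood apart from both knockdowns, and the control libraries enter both comparisons. The centred changes were -3.23 ± 0.19, -3.23 ± 0.16 and -3.07 ± 0.18 in Sp3 knockdown against -3.13 ± 0.28, -2.76 ± 0.25 and -2.91 ± 0.27 in HDAC2 knockdown, and the test of the difference gave adjusted p of 0.912, 0.335 and 0.838. Tapbpl (-3.03 ± 0.16 and -2.94 ± 0.25), Churc1 (-2.58 ± 0.18 and -2.47 ± 0.28), Dclre1c (-2.82 ± 0.19 and -2.52 ± 0.28), a DNA repair nuclease, and Ttf1 (-2.802 ± 0.18 and -2.62 ± 0.28) followed the same pattern. A value under -1.5 in both comparisons was seen in 85 genes, and leaving these out changed the calls little, to 2697 higher and 2332 lower. H2-T23 belongs to a family of similar genes that can share reads.

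Other falls did differ from HDAC2 knockdown by the test of the difference, which called 1043 of 13277 genes lower (7.86%) and 912 higher (6.87%) in Sp3 than in HDAC2 knockdown. The standard error of this difference counts the shared control in both terms, so it is too large rather than too small. Sat1, the rate-limiting enzyme of polyamine breakdown, measured 32.1 FPKM in control and 7.59 FPKM in Sp3 knockdown and 24.6 FPKM in HDAC2 knockdown, a centred change of -1.95 ± 0.16 against -0.70 ± 0.24 (adjusted p of the difference 0.000476). Ugcg, which makes glucosylceramide, the first step to gangliosides, measured 37.5 FPKM in control and 11.2 FPKM in Sp3 knockdown and 46.8 FPKM in HDAC2 knockdown, -1.61 ± 0.13 against 0.0035 ± 0.29 (adjusted p of the difference 2.03e-05). For both genes the lowest of the 3 group values was that of Sp3 knockdown. The antioxidant enzyme genes Gpx1 (40.2 to 15.7 FPKM, -1.23 ± 0.14 against 0.59 ± 0.22) and Sod1 (112 to 46.8 FPKM, -1.13 ± 0.12 against -0.073 ± 0.24) fell, and Srxn1 of the same defence rose. Rragd, a GTPase that signals amino acid supply to mTORC1 (32.8 to 13.1 FPKM, -1.196 ± 0.13), Cd24a, a small surface glycoprotein (74.5 to 29.95 FPKM, -1.18 ± 0.12), Cnn3, an actin-binding calponin (67.6 to 27.97 FPKM, -1.14 ± 0.12), Litaf, a lysosomal membrane protein (5.51 to 1.69 FPKM, -1.57 ± 0.25), and Frzb, a secreted Wnt inhibitor (6.84 to 2.12 FPKM, -1.56 ± 0.20), fell as well, each with an adjusted p of the difference under 0.05. Among rises, Mkrn1, an E3 ubiquitin ligase, went from 18.6 to 46.3 FPKM (1.45 ± 0.10 against -0.76 ± 0.24), Flot2, a scaffold of membrane rafts, from 13.99 to 34.9 FPKM (1.45 ± 0.087 against 0.23 ± 0.17), and Bhlhe22, a transcription factor of cortical neurons, from 18.3 to 43.8 FPKM (1.396 ± 0.10 against 0.061 ± 0.23). The secreted factors Apln (2.88 to 8.36 FPKM, 1.67 ± 0.17 against -0.89 ± 0.31), the apelin precursor, and Rspo2 (4.76 to 12.9 FPKM, 1.57 ± 0.14 against -0.17 ± 0.27), an enhancer of Wnt signalling, rose with an adjusted p of the difference of 9.65e-11 and 5.36e-07.

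**Figure D2:**
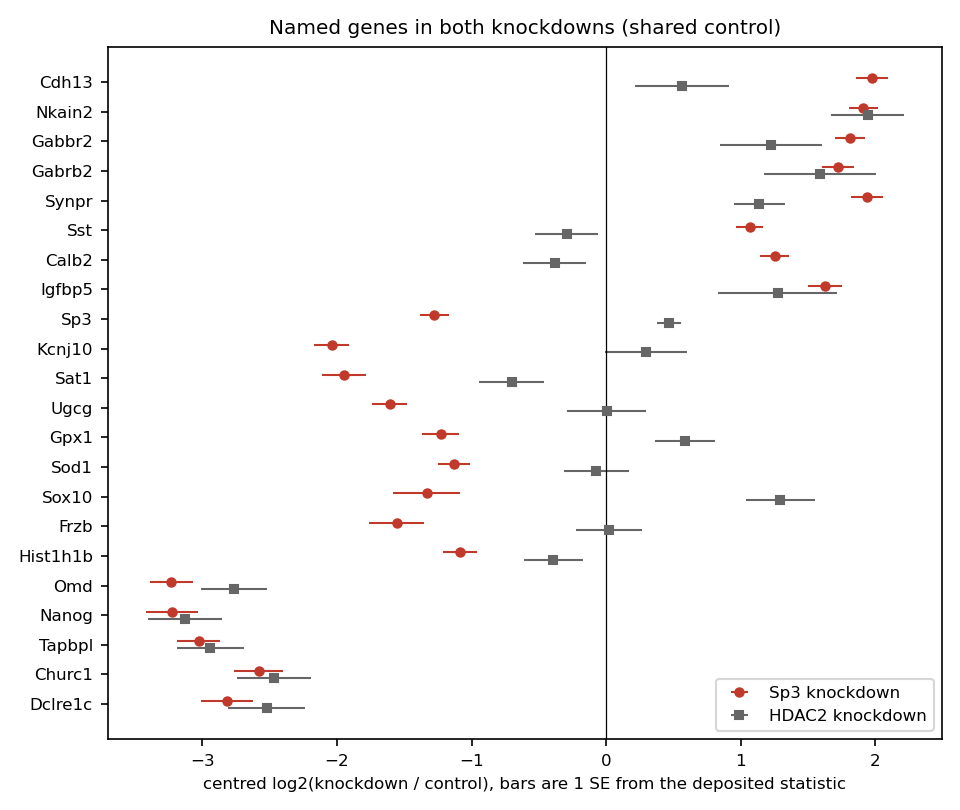
Centred log2(knockdown / control) of 22 named genes in Sp3 knockdown (red circles) and HDAC2 knockdown (grey squares), with bars of 1 standard error from the deposited statistic. Omd, Nanog, Tapbpl, Churc1 and Dclre1c lie between -3.23 and -2.47 in both, whereas Sox10, Gpx1 and Kcnj10 lie below 0 in Sp3 and above 0 in HDAC2 knockdown.

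GC boxes were counted in the promoters of genes that rose, fell or were not called. A RefSeq promoter on GRCm38.p6 could be matched by symbol or synonym for 10593 of the 13539 genes, and the first listed start was used. A GC box was present in 64.8% of the 2126 higher, 68.8% of the 1880 lower and 63.8% of the 6587 genes not called. The longer form GGGGCGGGG, which contains the short one, was present in 22.7%, 24.6% and 21.3%. The median centred change was 0.021 for the 3719 genes without a GC box and 0.036 for the 626 genes with 5 or more, and between these it stayed within -0.030 and -0.0058. In the same order of higher, lower and not called, CCAAT on either strand was present in 37.6%, 40.9% and 39.7%, the cAMP response element TGACGTCA, a palindrome, in 2.96%, 2.82% and 3.66%, the NRF1 element, a palindrome of 10 bases, in 1.41%, 1.86% and 2.25%, and TATAAA on either strand in 5.32%, 8.30% and 7.07%. Over all 32851 windows the shares were 11.4% for the long GC box, 37.4% for CCAAT, 1.79% for the cAMP response element, 0.971% for the NRF1 element and 13.6% for TATAAA. A match is a description of letters in this window and shows no binding. Of 19 genes tested that are described as targets of Sp1 or Sp3 through GC boxes, 4 were higher (21.1%, against 20.2% of all genes) and 6 lower (31.6%, against 17.6%). Besides Sod1, the falls included Tk1 (-0.97 ± 0.27), which supplies a DNA precursor, the cyclin gene Ccnd1 (-0.54 ± 0.13), Odc1 (-0.29 ± 0.12) and Egfr (-0.26 ± 0.10), and the rises were Sod2 (0.52 ± 0.13), Maoa (0.42 ± 0.10), Igf1r (0.42 ± 0.11) and Mapt (0.68 ± 0.25).

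The promoters of Nkain2 and Gabbr2, the largest rises at 30 FPKM or more with a matched GC-box promoter, are shown as examples. Dclre1c, the only such fall found among the 12 largest, is shown with them, each chosen for holding the element. Genes with clone or pseudogene names among the 12 falls were not searched. Ugcg is added, after its values were seen, as a fall that differs from HDAC2 knockdown. Windows are on GRCm38.p6 at chr10:32889866-32890165 (minus strand), chr4:46991665-46991964 (minus), chr2:3423881-3424180 (plus) and chr4:59189300-59189599 (plus), with GC boxes in capitals.
Nkain2: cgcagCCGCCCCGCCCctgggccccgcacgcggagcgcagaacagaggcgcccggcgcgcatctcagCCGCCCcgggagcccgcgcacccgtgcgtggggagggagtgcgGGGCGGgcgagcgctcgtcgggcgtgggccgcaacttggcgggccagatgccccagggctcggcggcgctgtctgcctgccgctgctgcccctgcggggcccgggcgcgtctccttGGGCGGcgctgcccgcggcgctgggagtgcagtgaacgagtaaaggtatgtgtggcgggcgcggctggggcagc
Gabbr2: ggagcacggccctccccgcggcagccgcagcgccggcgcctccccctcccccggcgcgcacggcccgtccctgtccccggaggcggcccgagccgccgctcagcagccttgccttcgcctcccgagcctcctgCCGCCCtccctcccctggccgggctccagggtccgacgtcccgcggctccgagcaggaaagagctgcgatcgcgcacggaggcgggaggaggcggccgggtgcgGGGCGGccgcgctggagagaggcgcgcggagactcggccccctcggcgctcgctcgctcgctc
Dclre1c: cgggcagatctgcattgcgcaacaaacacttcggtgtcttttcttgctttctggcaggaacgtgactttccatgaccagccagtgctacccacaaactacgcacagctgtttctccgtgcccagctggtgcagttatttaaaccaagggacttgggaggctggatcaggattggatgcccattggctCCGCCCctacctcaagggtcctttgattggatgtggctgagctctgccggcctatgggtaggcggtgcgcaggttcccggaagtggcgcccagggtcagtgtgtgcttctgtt
Ugcg: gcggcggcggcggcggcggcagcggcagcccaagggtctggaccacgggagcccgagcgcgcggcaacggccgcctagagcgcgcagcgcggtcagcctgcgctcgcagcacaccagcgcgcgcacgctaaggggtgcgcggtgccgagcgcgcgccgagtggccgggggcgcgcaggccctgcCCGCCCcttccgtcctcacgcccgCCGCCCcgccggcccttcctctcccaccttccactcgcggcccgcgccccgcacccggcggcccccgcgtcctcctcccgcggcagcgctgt
Nkain2 holds 5 boxes, Gabbr2 and Ugcg 2 each and Dclre1c 1. The GC content of the windows was 78.7%, 80.3%, 56.3% and 81.3% in this order.

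Most genes of dividing cells fell, although AraC had been given to every group. In bulk RNA, fewer cells of a type and less RNA per cell cannot be told apart. Of 38 cell cycle genes tested, 32 fell (84.2%, against 17.6% of all genes) and 1 rose, with a centred median of -0.65. Mki67, the proliferation marker, measured 19.5 FPKM in control and 11.3 FPKM in Sp3 knockdown, Top2a, a topoisomerase of mitotic chromosomes, 33.6 FPKM in control and 18.2 FPKM in Sp3 knockdown, and Ccnb1, a mitotic cyclin, 17.2 FPKM in control and 8.44 FPKM in Sp3 knockdown. All 3 stood lower in the knockdown, with centred changes of -0.65 ± 0.14, -0.75 ± 0.12 and -0.89 ± 0.13. Falls covered mitosis (Cdk1, 8.96 to 4.07 FPKM, -1.005 ± 0.16, and Bub1b, 4.48 to 2.097 FPKM, -0.96 ± 0.19), replication licensing (Mcm6, 16.1 to 8.503 FPKM, -0.79 ± 0.12, and Mcm2, 9.68 to 5.28 FPKM, -0.74 ± 0.14) and the chromatin protein Hmgb2 (23.9 to 9.89 FPKM, -1.14 ± 0.13). E2f1, a transcription factor that drives entry into S phase, was the 1 rise, from 2.895 to 4.26 FPKM (0.69 ± 0.20, adjusted p of 0.00302), and Tyms did not pass (0.19 ± 0.10). In HDAC2 knockdown the median of the same genes was -0.11. By the test of the difference, 6 of 38 were lower in Sp3 than in HDAC2 knockdown and 0 higher, against 7.86% and 6.87% of all genes.

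Histone genes had the largest share called lower of the 49 lists examined. Of 73 tested, 64 were lower (87.7%) and 0 higher, with a centred median of -0.74 and values from -1.09 to 0.22. Genes of all core histones and of the linker took part: Hist1h1b (H1) measured 77.5 FPKM in control and 33.3 FPKM in Sp3 knockdown, Hist1h2ab (H2A) 69.2 FPKM in control and 37.1 FPKM in Sp3 knockdown, Hist1h2bb (H2B) 95.2 FPKM in control and 47.6 FPKM in Sp3 knockdown, Hist1h3c (H3) 75.8 FPKM in control and 34.5 FPKM in Sp3 knockdown and Hist1h4a (H4) 157 FPKM in control and 81.3 FPKM in Sp3 knockdown. All 5 stood lower in the knockdown, and their centred values were -1.09 ± 0.13, -0.77 ± 0.14, -0.87 ± 0.13, -1.002 ± 0.15 and -0.81 ± 0.13. The replacement histones H3f3a (129 to 76.8 FPKM, -0.61 ± 0.12) and H3f3b (190.0 to 102 FPKM, -0.76 ± 0.20), which are made outside S phase, fell as well, whereas the macroH2A genes H2afy (0.091 ± 0.074) and H2afy2 (0.22 ± 0.12) did not pass the test. The median of the list in HDAC2 knockdown was -0.090, and 25 histone genes were lower in Sp3 than in HDAC2 knockdown by the test of the difference. Many of these genes are near-identical copies that can share reads, so they are not independent measurements and single values are uncertain. Of 66 histone genes with a matched promoter, 55 (83.3%) held CCAAT, 34 (51.5%) TATAAA and 27 (40.9%) a GC box. The promoters of the members with the lowest centred values and a match, Hist1h1b (RefSeq H1f5, chr13:21780576-21780875, minus strand) and Hist1h3c (RefSeq H3c3, chr13:23745472-23745771, minus strand), on GRCm38.p6, are shown with GC boxes, CCAAT and TATAAA on either strand in capitals.
Hist1h1b: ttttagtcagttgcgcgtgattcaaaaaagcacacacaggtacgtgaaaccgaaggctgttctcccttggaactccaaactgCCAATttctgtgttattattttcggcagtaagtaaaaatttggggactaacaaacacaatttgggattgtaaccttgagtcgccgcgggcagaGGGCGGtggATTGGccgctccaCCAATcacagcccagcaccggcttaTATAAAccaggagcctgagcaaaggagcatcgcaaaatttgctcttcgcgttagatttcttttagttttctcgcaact
Hist1h3c: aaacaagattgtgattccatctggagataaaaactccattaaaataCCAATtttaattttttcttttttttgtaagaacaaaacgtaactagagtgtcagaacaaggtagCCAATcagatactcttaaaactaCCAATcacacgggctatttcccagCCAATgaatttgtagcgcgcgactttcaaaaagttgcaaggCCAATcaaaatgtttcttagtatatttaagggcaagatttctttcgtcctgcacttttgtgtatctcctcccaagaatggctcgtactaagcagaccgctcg
Hist1h1b holds 3 CCAAT, 1 TATAAA and 1 GC box, and Hist1h3c 5 CCAAT and no match of the other motifs in this window.

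**Figure D3:**
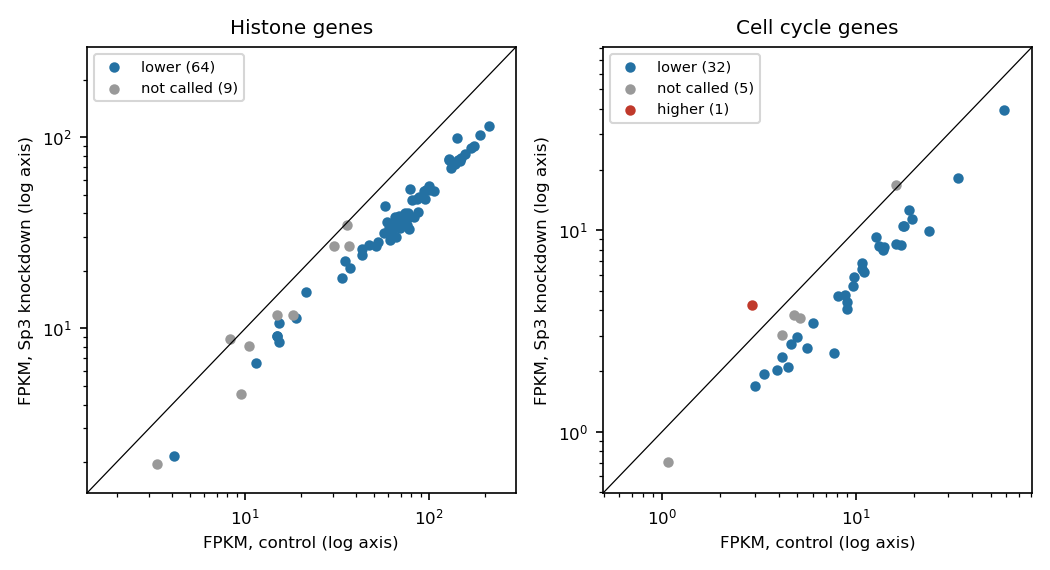
FPKM in Sp3 knockdown (vertical log axis) against control (horizontal log axis) for 73 histone genes (left) and 38 cell cycle genes (right), with the diagonal of equal values. Blue points are lower, red higher and grey not called, and 64 histone and 32 cell cycle genes lie below the diagonal as calls.

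Most oligodendrocyte lineage genes and some neural progenitor genes fell too, and astrocyte genes moved in both directions. Of 6 defining oligodendrocyte lineage markers, which summed to 118.5 FPKM in control and 67.7 in Sp3 knockdown, 5 were lower, namely Olig2, Sox10, Pdgfra, Cspg4 and Mbp. The dividing cell markers Mki67, Top2a and Ccnb1 summed to 70.2 and 37.97, with 3 of 3 lower. The neuronal markers Tubb3, Mtap2, Rbfox3, Snap25 and Syt1 summed to 918 and 1107, with 1 of 5 higher, and the range of single values, from 17.7 FPKM for Rbfox3 to 386 for Tubb3, shows that the cultures held neuronal RNA as labelled. Their part in the other results was not tested. Of 13 oligodendrocyte lineage genes tested, 10 fell and 0 rose (median -0.64, against 0.86 in HDAC2 knockdown): Pdgfra, the receptor that marks precursor cells, measured 43.8 FPKM in control and 20.9 FPKM in Sp3 knockdown (-0.93 ± 0.12), Cnp, an enzyme of myelin, 10.2 FPKM in control and 4.22 FPKM in Sp3 knockdown (-1.14 ± 0.16), and Olig1 95.1 FPKM in control and 57.1 FPKM in Sp3 knockdown (-0.60 ± 0.13). Of 13 progenitor genes, 6 fell (46.2%, against 17.6% of all genes) and 0 rose. Their median was -0.46, against 0.58 in HDAC2 knockdown. Hopx measured 38.02 FPKM in control and 15.96 FPKM in Sp3 knockdown (-1.12 ± 0.13), and Sox2 32.3 FPKM in control and 17.8 FPKM in Sp3 knockdown (-0.73 ± 0.11). Fabp7, a fatty acid carrier of radial glia, measured 704 FPKM in control and 351 FPKM in Sp3 knockdown (-0.87 ± 0.30). Sox2 and Hopx differed from HDAC2 knockdown (adjusted p of the difference 3.02e-08 and 7.11e-06), and Fabp7 did not pass that test (0.172).

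Of 25 astrocyte genes tested, 11 fell and 7 rose, with a median of -0.24 in Sp3 and 1.20 in HDAC2 knockdown. The authors' deposited table, without centring, calls 12 lower and 3 higher, so the number of rises depends on the centring. Kcnj10, the inward rectifier channel through which glia buffer potassium, measured 25.6 FPKM in control and 5.67 FPKM in Sp3 knockdown, with 39.04 FPKM in HDAC2 knockdown. The Sp3 value was the lowest of the 3 groups, with a centred change of -2.04 ± 0.13 against 0.30 ± 0.30 (adjusted p of the difference from HDAC2 knockdown = 2.29e-10). Sox9, a glial transcription factor (11.1 to 5.45 FPKM, -0.89 ± 0.13), the filament gene Gfap (16.7 to 9.13 FPKM, -0.73 ± 0.12), the glycolytic enzyme gene Aldoc (148 to 78.8 FPKM, -0.77 ± 0.16) and the gap junction gene Gja1 (22.3 to 14.1 FPKM, -0.53 ± 0.11) fell. Rises included the secreted chaperone gene Clu (81.8 to 112 FPKM, 0.59 ± 0.12), the lipid enzyme gene Acsbg1 (20.6 to 24.9 FPKM, 0.41 ± 0.10), the water channel gene Aqp4 (7.44 to 8.897 FPKM, 0.39 ± 0.11) and Aldh1l1 (28.1 to 31.8 FPKM, 0.31 ± 0.10). The 6 defining astrocyte markers summed to 250.4 FPKM in control and 278 in Sp3 knockdown, with 2 higher and 3 lower. Slc1a3 (173 and 212 FPKM, 0.43 ± 0.40, not called) sets this direction, since the other 5 summed to 77.3 FPKM in control and 65.4 in Sp3 knockdown. Defining markers of microglia were near the floor, with Itgam at 0.0489 and 0.0645 FPKM and C1qa at 0 in both groups, and the endothelial markers Pecam1 and Cldn5 at 0.568 FPKM or less. Of the other vascular markers, Kdr rose from 0.551 to 0.913 FPKM (0.86 ± 0.32) and the pericyte marker Pdgfrb fell from 1.18 to 0.502 FPKM (-1.11 ± 0.31). Extracellular matrix genes fell in 16 of 49 cases (32.7%, against 17.6% of all genes) and rose in 8 (16.3%, against 20.2%). Col9a3 (5.41 to 1.71 FPKM, -1.53 ± 0.23), Timp3 (17.1 to 8.52 FPKM, -0.87 ± 0.11) and Mmp14 (14.6 to 8.28 FPKM, -0.68 ± 0.13) were among the falls, and Dcn, the proteoglycan decorin (26.6 to 49.9 FPKM, 1.04 ± 0.090), and Timp2 (85.9 to 136 FPKM, 0.80 ± 0.19) among the rises.

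Many immediate early transcription factor genes, which neurons switch on within minutes of activity, fell. Of 22 tested, 13 fell and 1 rose, with a median of -0.53 against -1.22 in HDAC2 knockdown. Fos measured 59.8 FPKM in control and 28.2 FPKM in Sp3 knockdown, with 32.3 FPKM in HDAC2 knockdown, and Jun 50.3 FPKM in control and 21.5 FPKM in Sp3 knockdown, with 42.99 FPKM. Both stood lower in each knockdown than in control, with centred changes of -0.95 ± 0.12 and -1.204 ± 0.23 for Fos and -1.09 ± 0.12 and -0.54 ± 0.26 for Jun. Npas4 (-0.68 ± 0.11 against -3.19 ± 0.26), Egr1 (-0.72 ± 0.15 against -1.61 ± 0.26) and Fosb (-1.298 ± 0.17 against -3.26 ± 0.36) fell less in Sp3 than in HDAC2 knockdown by the test of the difference. Egr3 (0.21 ± 0.13) and Nr4a2 (0.26 ± 0.16) did not pass in Sp3 knockdown, and Fosl2 rose (0.36 ± 0.12). The call of Fosl2 depends on the centring, since the authors' deposited table calls 0 genes of this list higher and 15 lower. Effector genes further downstream were divided, with 12 of 36 lower (33.3%, against 17.6% of all genes) and 9 higher (25%, against 20.2%). Arc, an organiser of synaptic plasticity (49.2 to 23.5 FPKM, -0.94 ± 0.13), the phosphatase gene Dusp1 (26.5 to 15.8 FPKM, -0.61 ± 0.12) and Gem, a GTPase that restrains calcium channels (3.67 to 0.582 FPKM, -2.52 ± 0.42), fell. Bdnf, the neurotrophin (22.8 to 32.6 FPKM, 0.65 ± 0.060), Nptx2, a pentraxin that gathers AMPA receptors (19.2 to 27.6 FPKM, 0.66 ± 0.10), Ptgs2 (3.22 to 5.62 FPKM, 0.93 ± 0.17) and Inhba, an activin subunit (0.738 to 2.29 FPKM, 1.77 ± 0.46), rose. In HDAC2 knockdown Bdnf stood at -0.78 ± 0.10 and Nptx2 at -0.84 ± 0.23, and both differences passed the test (adjusted p of 1.02e-32 and 3.08e-07).

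Most markers of inhibitory neurons and some of excitatory neurons rose. The defining GABAergic markers Gad1, Gad2 and Slc32a1 summed to 64.04 FPKM in control and 82.9 in Sp3 knockdown, with 3 of 3 higher, and the glutamatergic markers Slc17a7, Slc17a6 and Neurod6 to 233 and 282, with 1 of 3 higher. Whether the neuronal rises below follow these sums was not tested. Of 18 GABAergic markers tested, 10 were higher and 2 lower, with the highest median of the lists in the plot of medians (0.55). Gad2, which makes GABA, measured 10.8 FPKM in control and 15.5 FPKM in Sp3 knockdown, the vesicular transporter gene Slc32a1 9.39 FPKM in control and 13.1 FPKM in Sp3 knockdown, and Sst, the somatostatin precursor, 75.99 FPKM in control and 145 FPKM in Sp3 knockdown. All 3 stood higher in the knockdown, by 0.65 ± 0.10, 0.61 ± 0.13 and 1.07 ± 0.10, and in HDAC2 knockdown their values were -0.80 ± 0.24, -0.88 ± 0.26 and -0.29 ± 0.23. Gad1 did not share this contrast (0.44 ± 0.11 and 0.45 ± 0.32), and the median of the list in HDAC2 knockdown was 0.14. Npy, neuropeptide Y (2.42 to 8.398 FPKM, 1.93 ± 0.39), Calb2, the calcium buffer calretinin (19.5 to 42.4 FPKM, 1.25 ± 0.11), and Lhx6, a factor of cortical interneurons (0.912 to 1.69 FPKM, 1.02 ± 0.18), rose, whereas Reln, the layering signal reelin (28.2 to 11.1 FPKM, -1.21 ± 0.20), and the neuregulin receptor gene Erbb4 (13.2 to 9.06 FPKM, -0.41 ± 0.11) fell. Of 19 glutamatergic markers, 6 were higher (31.6%, against 20.2% of all genes) and 3 lower (15.8%, against 17.6%). Mef2c (61.5 to 101 FPKM, 0.85 ± 0.17) and Neurod2 (6.84 to 10.5 FPKM, 0.75 ± 0.10), transcription factors of cortical excitatory neurons, rose, and Bcl11b, of deep-layer neurons (8.13 to 5.72 FPKM, -0.38 ± 0.087), Cux1 (22.6 to 15.1 FPKM, -0.45 ± 0.093) and Nrgn, a postsynaptic calmodulin-binding protein (67.6 to 44.4 FPKM, -0.47 ± 0.11), fell. Of 18 pan-neuronal genes 8 rose and 1 fell. The neurofilament genes parted: the light chain Nefl rose from 55.8 to 114 FPKM (1.16 ± 0.11), the medium chain Nefm from 4.09 to 8.14 FPKM (1.12 ± 0.16), and the heavy chain Nefh fell from 6.96 to 2.69 FPKM (-1.24 ± 0.16).

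**Figure D4:**
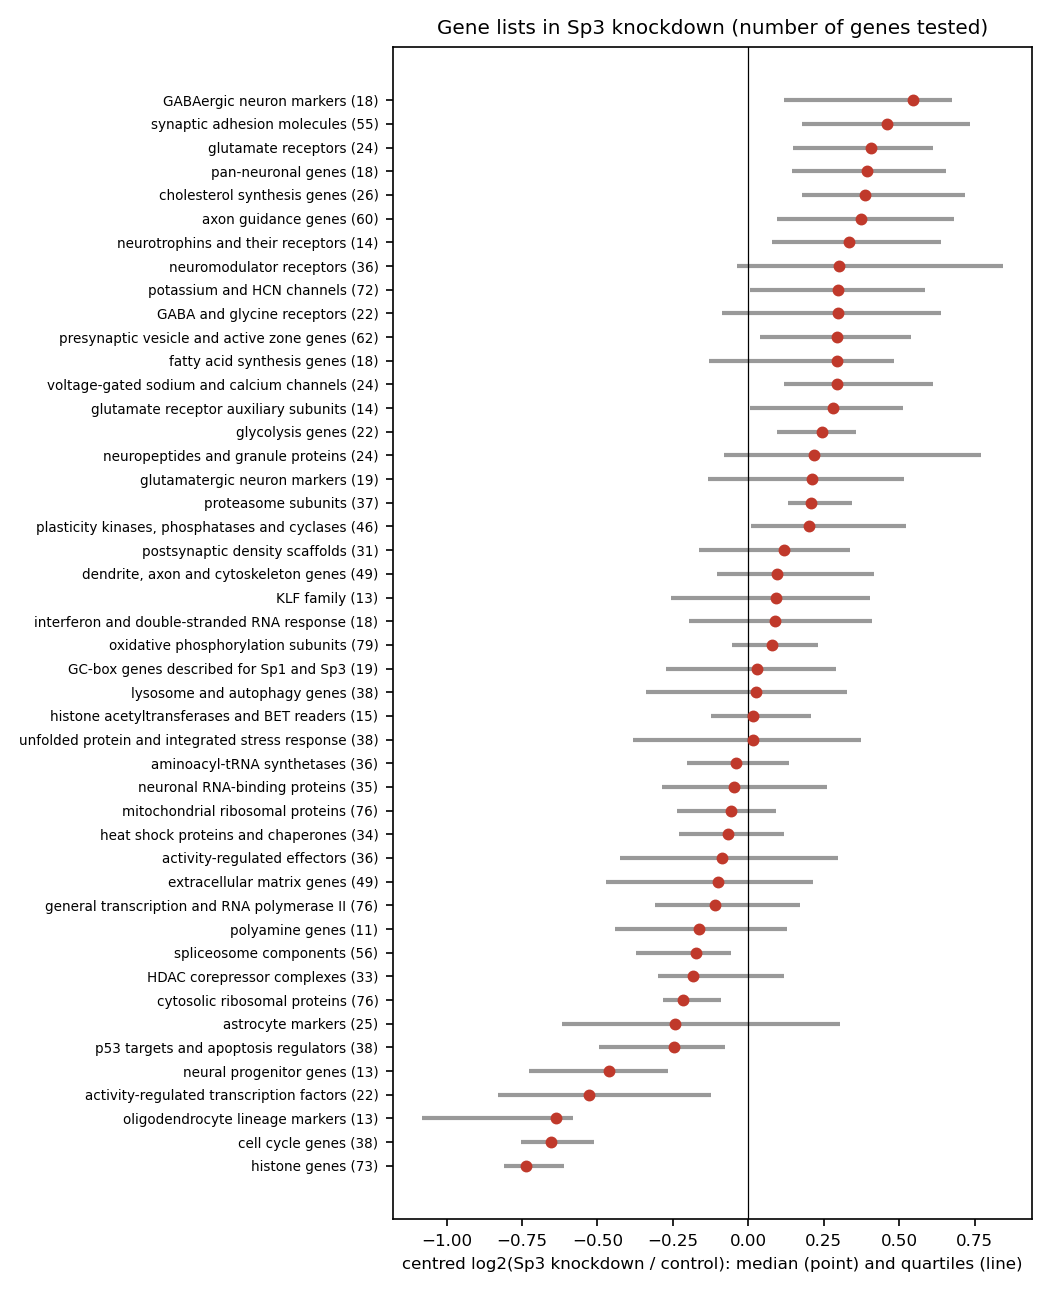
Median (points) and quartiles (lines) of centred log2(Sp3 knockdown / control) for each gene list with at least 10 tested genes, the number tested in brackets. The medians run from -0.74 for histone genes to 0.55 for GABAergic neuron markers.

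At the synapse, most genes of adhesion molecules rose. Among 55 adhesion genes tested, 34 rose (61.8%, against 20.2% of all genes) and 0 fell, with a median of 0.46. Besides Cdh13, cadherin genes of type II rose: Cdh12 (1.35 to 4.78 FPKM, 1.96 ± 0.17), Cdh18 (9.51 to 20.7 FPKM, 1.26 ± 0.11), Cdh7 (0.74 ± 0.16), Cdh10 (0.50 ± 0.10) and Cdh11 (0.44 ± 0.11). The leucine-rich organisers Slitrk1 (27.5 to 46.8 FPKM, 0.90 ± 0.10), Slitrk5 (24.4 to 40.2 FPKM, 0.85 ± 0.11), Flrt2 (12.4 to 19.2 FPKM, 0.76 ± 0.10) and Lrrtm3 (11.3 to 16.6 FPKM, 0.69 ± 0.10) and the receptor phosphatase gene Ptprd (42.8 to 86.8 FPKM, 1.15 ± 0.19) rose, whereas the neuroligins Nlgn2 (0.11 ± 0.20) and Nlgn3 (-0.13 ± 0.16) did not pass. Of 62 presynaptic genes tested, 31 rose and 2 fell. Synpr, the vesicle protein synaptoporin, measured 7.61 FPKM in control and 26.6 FPKM in Sp3 knockdown (1.94 ± 0.12, against 1.14 ± 0.19 in HDAC2 knockdown, adjusted p of the difference 0.00469). Sv2a, a vesicle glycoprotein, measured 69.2 FPKM in control and 141 FPKM in Sp3 knockdown (1.16 ± 0.18), and Snap25, a core of the fusion complex, 46.9 FPKM in control and 73.6 FPKM in Sp3 knockdown (0.78 ± 0.21). The active zone genes Erc2 (22.7 to 35.99 FPKM, 0.80 ± 0.11) and Pclo (26.7 to 29.9 FPKM, 0.30 ± 0.065) rose as well, and Rims3 (-0.62 ± 0.26) and Sypl (-0.50 ± 0.14) fell.

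Of 24 glutamate receptor genes, 14 rose and 1 fell (median 0.41). Metabotropic members took part, with Grm7 at 30.6 FPKM in control and 48.9 FPKM in Sp3 knockdown (0.81 ± 0.11) and Grm3 at 15.4 FPKM in control and 23.8 FPKM in Sp3 knockdown (0.76 ± 0.10). The NMDA receptor subunits Grin1 (-0.067 ± 0.066), Grin2a (-0.15 ± 0.14) and Grin2b (0.045 ± 0.40) did not pass the test, Grin3a rose (0.65 ± 0.11) and Grin2c fell (-1.13 ± 0.35, at about 1 FPKM). Of 14 auxiliary subunit genes 7 rose and 2 fell: Cnih3 (11.2 to 17.01 FPKM, 0.74 ± 0.090) and Shisa7 (8.29 to 11.98 FPKM, 0.66 ± 0.10), which shape AMPA receptor gating, were among the rises, and Cacng4 (28.3 to 16.8 FPKM, -0.62 ± 0.15) and Neto2 (33.3 to 22.3 FPKM, -0.44 ± 0.12) were the falls. Of 22 genes of GABA and glycine receptors and their partners, 11 rose and 3 fell. Besides Gabbr2 and Gabrb2, the subunit genes Gabra2 (99.96 to 145 FPKM, 0.67 ± 0.15) and Gabra5 (46.4 to 59.7 FPKM, 0.50 ± 0.10) rose, and the chloride importer gene Slc12a2 (21.3 to 14.2 FPKM, -0.45 ± 0.11) fell. Of 31 postsynaptic scaffold genes, 14 rose (45.2%, against 20.2% of all genes) and 7 fell (22.6%, against 17.6%). The authors' deposited table calls 10 of them higher and 10 lower, and their median of 0.12 turned to -0.016 without centring. Dlg2 (55.7 to 86.4 FPKM, 0.77 ± 0.17) and Lrrc7 (31.9 to 45.3 FPKM, 0.64 ± 0.13) rose, and Shank1 (28.2 to 17.1 FPKM, -0.59 ± 0.13), Shank2 (25.9 to 17.2 FPKM, -0.46 ± 0.086) and Homer2 (10.2 to 6.09 FPKM, -0.61 ± 0.063) fell. Among 46 kinases, phosphatases and cyclases of plasticity, 19 rose and 3 fell. Adcy9, an adenylyl cyclase, measured 9.89 FPKM in control and 29.4 FPKM in Sp3 knockdown (1.704 ± 0.10, against 0.19 ± 0.25 in HDAC2 knockdown, adjusted p of the difference 5.57e-07) and Prkacb, which encodes a catalytic chain of protein kinase A, 116 FPKM in control and 57.7 FPKM in Sp3 knockdown (-0.88 ± 0.091).

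Rises outnumbered falls among neuromodulator receptors. Of 36 neuromodulator receptor genes tested, 18 rose and 2 fell (median 0.30). Cnr1, the cannabinoid receptor, measured 63.7 FPKM in control and 131 FPKM in Sp3 knockdown (1.17 ± 0.21), the serotonin receptor gene Htr2c 12.6 FPKM in control and 23.3 FPKM in Sp3 knockdown (1.01 ± 0.10) and the nicotinic subunit gene Chrna4 6.91 FPKM in control and 14.3 FPKM in Sp3 knockdown (1.18 ± 0.11). Each was higher in the knockdown, and the muscarinic receptor gene Chrm4 (10.1 to 17.9 FPKM, 0.96 ± 0.11) and the adenosine receptor gene Adora1 (24.6 to 36.2 FPKM, 0.69 ± 0.056) rose with them. The falls were Chrnb2, the usual partner of Chrna4 (15.7 to 8.86 FPKM, -0.70 ± 0.11), and Adora2b (6.64 to 2.92 FPKM, -1.05 ± 0.22). Of 24 neuropeptide and granule genes, 8 rose (33.3%, against 20.2% of all genes) and 1 fell (4.17%, against 17.6%). Their median was 0.22, against -0.52 in HDAC2 knockdown. Pcsk2, which cleaves peptide precursors (58.3 to 114 FPKM, 1.100 ± 0.17), Penk, the enkephalin precursor (1.76 to 4.94 FPKM, 1.62 ± 0.31), Nts, neurotensin (4.17 to 8.77 FPKM, 1.21 ± 0.24), and Cck (141 to 197 FPKM, 0.62 ± 0.10) rose, and the granule protein gene Scg3 fell (201 to 137 FPKM, -0.43 ± 0.042).

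Among 60 axon guidance genes, 33 rose and 8 fell (median 0.37). Ligands that rose included Slit2 (11.6 to 25.3 FPKM, 1.26 ± 0.10), Sema3c (6.71 to 12.2 FPKM, 0.99 ± 0.11) and Efnb3 (38.2 to 60.7 FPKM, 0.80 ± 0.11). Receptors that rose included the Eph receptors Epha3 (8.71 to 17.2 FPKM, 1.11 ± 0.11) and Epha6 (19.7 to 34.7 FPKM, 0.95 ± 0.10), the netrin receptors Unc5b (4.42 to 8.48 FPKM, 1.07 ± 0.11) and Dcc (9.97 to 16.6 FPKM, 0.86 ± 0.10), and the semaphorin co-receptor Nrp2 (14.3 to 21.6 FPKM, 0.72 ± 0.059). The related co-receptor Nrp1 fell from 55.6 to 31.4 FPKM (-0.69 ± 0.19), as did the plexins Plxnd1 (14.7 to 9.49 FPKM, -0.50 ± 0.11) and Plxnb1 (13.2 to 8.66 FPKM, -0.48 ± 0.11) and the ligand gene Sema5a (6.304 to 3.32 FPKM, -0.79 ± 0.11). Of 14 neurotrophin and growth factor genes, 6 rose and 1 fell. The receptor gene Ntrk3 (57.6 to 80.3 FPKM, 0.61 ± 0.061) and Ntf3, the gene of its ligand (0.907 to 2.93 FPKM, 1.82 ± 0.46), rose, and the receptor gene Ret fell (1.91 to 0.887 FPKM, -0.97 ± 0.21).

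Ion channel genes rose in larger number than they fell. Of 24 sodium and calcium channel genes, 11 rose (45.8%, against 20.2% of all genes) and 0 fell. Rises included the auxiliary calcium channel subunits Cacnb1 (11.7 to 23.7 FPKM, 1.15 ± 0.12) and Cacna2d2 (1.33 to 2.39 FPKM, 0.97 ± 0.13) and the T-type channel gene Cacna1g (7.79 to 12.2 FPKM, 0.78 ± 0.077). The pore-forming genes Cacna1a (-0.068 ± 0.044) and Scn8a (-0.016 ± 0.064) did not pass. Of 72 potassium and HCN channel genes, 36 rose (50%, against 20.2% of all genes) and 6 fell (8.33%, against 17.6%). Kcnj3, a subunit of channels gated by G proteins (24.7 to 39.9 FPKM, 0.82 ± 0.10), and Kcna2 (7.41 to 11.9 FPKM, 0.81 ± 0.11) rose. Kcng3, a silent subunit, rose from 1.97 to 6.26 FPKM (1.796 ± 0.18, against 0.30 ± 0.31 in HDAC2 knockdown, adjusted p of the difference 0.00072). Besides Kcnj10, falls included Kcnip3 (11.99 to 7.52 FPKM, -0.54 ± 0.11) and Kcnk12 (15.1 to 9.03 FPKM, -0.61 ± 0.15).

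Most cholesterol synthesis genes rose. Of 26 cholesterol genes tested, 15 rose and 1 fell, with a median of 0.39 against -0.58, and 15 were higher in Sp3 than in HDAC2 knockdown by the test of the difference. Fdps, which makes farnesyl pyrophosphate, measured 148 FPKM in control and 240.0 FPKM in Sp3 knockdown, with 97.6 FPKM in HDAC2 knockdown. Nsdhl, a demethylating enzyme, measured 36.4 FPKM in control and 62.8 FPKM in Sp3 knockdown, with 32.3 FPKM in HDAC2 knockdown. For both, the Sp3 group held the highest and the HDAC2 group the lowest of the 3 values, with centred values of 0.83 ± 0.12 against -0.92 ± 0.24 and 0.92 ± 0.10 against -0.49 ± 0.24. Mvk (30.3 to 47.6 FPKM, 0.78 ± 0.10) and the regulator gene Insig2 (6.698 to 12.8 FPKM, 1.07 ± 0.14) rose. Srebf1, a master regulator of lipid synthesis, fell (37.7 to 26.01 FPKM, -0.40 ± 0.12). Of 18 fatty acid synthesis genes, 7 rose and 1 fell. Scd1, a desaturase (75.4 to 142 FPKM, 1.05 ± 0.21), and Acaca, the first committed enzyme (20.4 to 36.3 FPKM, 0.96 ± 0.13), led the rises.

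List medians of genes that make, splice and degrade gene products moved by small amounts, while some single genes moved more. Of 76 cytosolic ribosomal protein genes, 11 fell (14.5%, against 17.6% of all genes) and 1 rose, and 67 of 76 values lay under 0 (median -0.22). The authors' deposited table, without centring, calls 34 of them lower and 0 higher, against 26.1% of all genes lower, so the standing of this list depends on the centring. Rps19 measured 419 FPKM in control and 241 FPKM in Sp3 knockdown (-0.66 ± 0.16), and Rpl10, the 1 rise, 238 FPKM in control and 287 FPKM in Sp3 knockdown (0.40 ± 0.13). Processed copies of these genes can share their reads. Of 56 spliceosome genes, 19 fell (33.9%, against 17.6% of all genes) and 1 rose (1.79%, against 20.2%), with a median of -0.17. Snrpa (33.1 to 19.8 FPKM, -0.61 ± 0.11), Sf1 (22.6 to 14.6 FPKM, -0.50 ± 0.075) and Srsf7 (50.7 to 33.4 FPKM, -0.47 ± 0.063) were among the falls. Of 76 general transcription and RNA polymerase II genes, 16 fell (21.1%, against 17.6% of all genes) and 10 rose (13.2%, against 20.2%). The small polymerase subunit gene Polr2l (59.7 to 21.9 FPKM, -1.31 ± 0.12) and Taf13 (16.5 to 6.38 FPKM, -1.24 ± 0.18) fell, and the Mediator subunit genes Med14 (12.7 to 18.4 FPKM, 0.66 ± 0.074) and Med24 (19.3 to 28.2 FPKM, 0.68 ± 0.10) rose. In HDAC2 knockdown Polr2l stood at -1.64 ± 0.23 and Taf13 at -0.10 ± 0.25. Taf13 passed the test of the difference (adjusted p of 0.00345) and Polr2l did not (0.49). Of 37 proteasome genes, 13 rose and 1 fell (median 0.21): Psmb2 (45.1 to 62.9 FPKM, 0.61 ± 0.10) and Psmc3 (53.9 to 74.6 FPKM, 0.60 ± 0.10) rose and Psmc4 fell (52.9 to 34.6 FPKM, -0.48 ± 0.11). Of 79 oxidative phosphorylation genes, 13 rose (16.5%, against 20.2% of all genes) and 3 fell, a share under the 17.6% of all genes. The authors' deposited table calls 9 higher and 12 lower, and the median of 0.080 turned to -0.053 without centring. Uqcrc2, of complex III, rose from 60.5 to 109 FPKM (0.99 ± 0.10) and Ndufs5, of complex I, fell from 37.6 to 16.2 FPKM (-1.08 ± 0.28).

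Among chromatin and stress genes, falls were more frequent than rises in the corepressor and p53 lists. Of 33 genes of histone deacetylase corepressor complexes, 10 fell (30.3%, against 17.6% of all genes) and 3 rose (9.09%, against 20.2%), with a median of -0.18. Sap18, of the Sin3 complex, measured 65.5 FPKM in control and 11.9 FPKM in Sp3 knockdown (-2.33 ± 0.16, against -1.901 ± 0.26 in HDAC2 knockdown), and Rest, the repressor of neuronal genes, 3.48 FPKM in control and 1.75 FPKM in Sp3 knockdown (-0.86 ± 0.20). Sin3a (8.74 to 6.51 FPKM, -0.29 ± 0.10) and Mta2 (18.5 to 12.4 FPKM, -0.44 ± 0.11) fell, Hdac1 did not pass (0.0016 ± 0.16), and Sap130 rose (7.63 to 9.72 FPKM, 0.48 ± 0.11). Of 15 histone acetyltransferase and bromodomain reader genes, 4 rose (26.7%, against 20.2% of all genes) and 2 fell (13.3%, against 17.6%), while the authors' deposited table calls 2 higher and 4 lower. Crebbp rose from 13.2 to 17.1 FPKM (0.50 ± 0.10) and Brd2 fell from 85.1 to 56.8 FPKM (-0.45 ± 0.051). Of 38 p53 target and apoptosis genes, 13 fell (34.2%, against 17.6% of all genes) and 3 rose (7.89%, against 20.2%), with a median of -0.25. Bbc3, which triggers apoptosis, measured 11.8 FPKM in control and 4.15 FPKM in Sp3 knockdown (-1.37 ± 0.18), and Mcl1, which restrains it, 57.00 FPKM in control and 26.8 FPKM in Sp3 knockdown (-0.96 ± 0.13). Both stood lower in the knockdown, and Ei24 (35.1 to 57.97 FPKM, 0.86 ± 0.081) and Apaf1 (6.36 to 9.62 FPKM, 0.73 ± 0.087) rose. Of 38 unfolded protein and integrated stress response genes, 11 rose (28.9%, against 20.2% of all genes) and 10 fell (26.3%, against 17.6%), while the authors' deposited table calls 8 higher and 13 lower. The falls included the chaperone cofactor gene Dnajb9 (26.5 to 8.11 FPKM, -1.57 ± 0.14), Herpud1 (50.5 to 24.01 FPKM, -0.94 ± 0.12) and Ddit3 (35.04 to 19.4 FPKM, -0.72 ± 0.13), and the rises Sel1l (40.05 to 68.6 FPKM, 0.91 ± 0.12), Slc7a5 (48.8 to 77.3 FPKM, 0.80 ± 0.13) and Xbp1 (35.4 to 53.7 FPKM, 0.74 ± 0.10). Of 11 polyamine genes 4 fell and 0 rose, with Srm, which makes spermidine (36.9 to 19.5 FPKM, -0.79 ± 0.12), after Sat1.

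Genes with long loci were called higher more often than short ones. The length is that of the locus as deposited on mm9, from start to end with introns. Under 10 kb, 13.1% of 3224 genes were higher and 18.1% lower, with a median of -0.062. At 300 kb or more, 41.5% of 590 genes were higher and 7.46% lower, with a median of 0.27. The classes between stood in order, with medians of -0.034, 0.014 and 0.088. Among genes of at least 10 FPKM the longest class had a median of 0.34, with 52.8% higher, and the shortest -0.050. Over the 570 longest genes tested in both knockdowns the median was 0.26 in Sp3 and -0.048 in HDAC2 knockdown, and 17.7% were higher and 4.56% lower in Sp3 than in HDAC2 knockdown. Cdh13 and Ptprd, described with the adhesion genes, belong to the longest class, so the classes and the gene lists overlap.

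**Figure D5:**
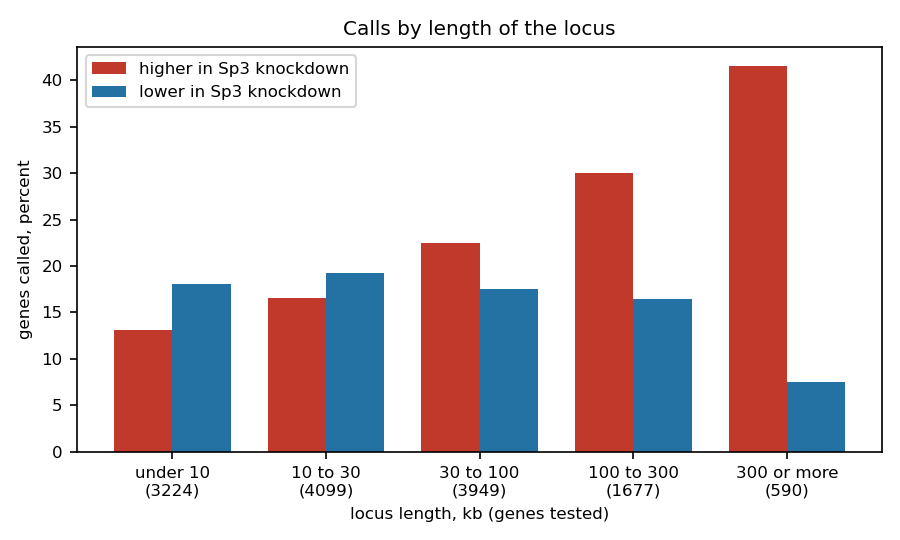
Percent of tested genes called higher (red) and lower (blue) in Sp3 knockdown by locus length in kb, with the number of genes tested in brackets. The share called higher runs from 13.1% under 10 kb to 41.5% at 300 kb or more.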

How the data were processed

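RNA was sequenced from 6 libraries, 2 per group. Per the submitters' processing notes, reads were handled with TopHat, Bowtie and Cuffdiff on mm9, with versions not given in the sources used here. Each gene has 1 FPKM value per group as deposited by the authors. For each pair of groups the authors deposited the log2 fold, its test statistic and the p-value and q-value. Depth is unknown and the spread between libraries enters only through the deposited statistic, so no interval based on counts is given.

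The deposited p-values matched the two-sided normal p of the deposited statistic to within 2.79e-06, so the normal was kept. The deposited log2 values of all genes were shifted by the median of genes that reach 1 FPKM in control or knockdown. The implied standard error, log2 change over statistic, was kept, and two-sided normal p-values of the shifted statistic were adjusted by the Benjamini-Hochberg method over genes with status OK and values above 0 in both groups. The 73 genes listed at 0 in 1 group have no fold, and 7 others had no usable error. The difference between knockdowns was tested with the summed variances of both changes. The method was tested on simulated data with normal noise scaled by the deposited standard errors. Such data cannot show whether these errors or the normal suit 2 libraries per group.

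Named genes are the 12 rises and 12 falls with the largest change overall and at 30 FPKM or more, and the 10 with the largest FPKM difference each way. Each of 49 lists gave up to 5 called members with the largest statistic, in either direction, and its most abundant one. Added were up to 15 per direction that differ from HDAC2 knockdown. Others were named after their values were seen. The members and lists were chosen with earlier results of these data known. Promoters were read from a RefSeq table on GRCm38.p6 and joined by name, never by position. Alternatives were other centring and scaling, minimum FPKM, thresholds, pseudocounts and a t distribution. Python 3.11.15, numpy 2.4.6, pandas 2.3.3, scipy 1.17.1 and matplotlib 3.10.9 were used. Results for some list members are not reported here.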

Additional observations from a re-analysis of the deposited data

How the results depend on the processing

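The counts of 2736 higher and 2383 lower genes depend on the centre and on the reference distribution. Without centring 3713 genes were lower and 1868 higher, a share of 33.5% higher, and the authors' q-values called 1801 higher and 3551 lower among the tested genes. Upper-quartile scaling gave 2271 and 2934 (43.6% higher), and centring on genes of at least 10 FPKM gave 2416 and 2731 (46.9% higher). At 1.5-fold or more, 1144 were higher and 1179 lower. With a t distribution of 2 degrees of freedom the counts were 0 and 0, with 1295 and 910 at an unadjusted p under 0.05, where the normal gave 3210 and 2888. Of the 346 genes selected by rule, no called direction reversed under any alternative run. This was partly fixed in advance: ranked genes had to share their direction with the authors' calls, and stricter thresholds cannot change a sign. The call was lost in 313 of them with the t distribution, in 69 at 1.5-fold and in 12 at an adjusted p under 0.01. With a pseudocount of 1, the change of 73 moved by at least 1 standard error. Among these 346, the sign of 5 that were not called turned without centring, namely Sp2, Sp4, Chd3, Sparcl1 and Spnb3. Uncalled genes named in other ways were not in this count. Some of them turn as well, such as Slc17a6 (17.7 to 17.2 FPKM, centred 0.098) and Mtap2 (311 to 308 FPKM, centred 0.12). Of 49 list medians 10 changed sign without centring, 5 with upper-quartile scaling, 5 with the centre at 10 FPKM, 2 with at least 1 FPKM and 1 with a pseudocount of 1. No paired analysis was possible because each group has 1 pooled value, and for the same reason no library could be left out. The set without genes under -1.5 in both knockdowns was chosen after seeing the data.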

Other observations

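Several further gene groups moved little or in both directions in Sp3 knockdown. Of 38 lysosome and autophagy genes tested, 11 rose and 9 fell (7 and 10 in the authors' deposited table): Gabarap, which coats autophagosomes (43.97 to 68.97 FPKM, 0.78 ± 0.10), and Cln3 (3.91 to 6.08 FPKM, 0.77 ± 0.17) rose, and the lysosomal enzyme gene Tpp1 (32.7 to 18.3 FPKM, -0.71 ± 0.11) fell. Of 35 genes of neuronal RNA-binding proteins, 10 rose and 11 fell (5 and 18 in the authors' deposited table). The splicing factor gene Nova1 measured 4.55 FPKM in control and 1.58 FPKM in Sp3 knockdown (-1.39 ± 0.16) and Qk, which is also strong in glia, 103 FPKM in control and 54.5 FPKM in Sp3 knockdown (-0.78 ± 0.055), both lower, whereas Rbfox1 rose from 12.9 to 19.98 FPKM (0.77 ± 0.076). Of 49 dendrite, axon and cytoskeleton genes, 11 rose and 6 fell (7 and 9 in the authors' deposited table). The small GTPase genes Cdc42 (145 to 76.8 FPKM, -0.78 ± 0.073) and Rhoa (47.6 to 30.3 FPKM, -0.52 ± 0.11) fell and the kinase gene Limk1 rose (11.5 to 17.5 FPKM, 0.73 ± 0.11).

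Over all genes tested 20.2% rose and 17.6% fell. Of 22 glycolysis genes, 4 rose and 1 fell (3 and 3 in the authors' deposited table), of 36 aminoacyl-tRNA synthetase genes 3 rose and 8 fell, and of 76 mitochondrial ribosomal protein genes 7 rose and 11 fell (5 and 24 in the authors' deposited table). Of 34 heat shock and chaperone genes, 4 rose and 7 fell, with the small heat shock gene Hspb8 (4.26 to 1.46 FPKM, -1.42 ± 0.29) and its partner Bag3 (1.87 to 0.524 FPKM, -1.699 ± 0.44) lowest. Of 18 interferon response genes, 4 rose and 2 fell (3 and 3 in the authors' deposited table). B2m, the light chain of MHC class I (9.53 to 21.6 FPKM, 1.31 ± 0.19, against 2.17 ± 0.26 in HDAC2 knockdown), and H2-K1 (9.53 to 14.7 FPKM, 0.76 ± 0.14) were among the rises. Of 3 microglia and macrophage genes tested 1 fell, and of 7 endothelial, pericyte and fibroblast genes 2 rose and 2 fell.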
